A study of Mus musculus with 14 samples.

Results

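The subject here is the set of m6A peaks that the deposited annotation places in 5' untranslated regions (5' UTRs) of mouse brain transcripts. Members were chosen by that annotation alone: every peak labelled UTR5 in the 3 group peak lists, and every row labelled UTR5 in the 3 tables that compare the groups. They numbered 5609 of 48251 peaks in the sham list, 6651 of 54754 in the ICH list and 5587 of 50105 in the acupuncture list, or 17847 of 153110 peaks in all. These peaks lay on 7393 of the 18713 genes that carried any peak.

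N6-methyladenosine (m6A) is a methyl mark on adenosine in messenger RNA, written by a nuclear complex built on METTL3 and METTL14 and removed by ALKBH5 and FTO. Most m6A sits near stop codons and in 3' UTRs. In 5' UTRs the mark has been linked to cap-independent initiation, with heat shock transcripts as the textbook case. The antibody used for m6A sequencing also binds m6Am, the cap-adjacent form written by PCIF1 when the first transcribed base is A, so a peak at a transcript's very start can hold either mark.

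The mice were sham-operated, or received autologous blood into the brain as a model of intracerebral hemorrhage (ICH), or were ICH mice treated by acupuncture at the GV20 point on 7 consecutive days. Poly(A) RNA of brain tissue was fragmented and divided into an input library and a library pulled down with an m6A antibody (IP). The labels held 3 sham, 2 ICH and 2 acupuncture samples, each with both libraries. Strain, sex, age, brain region, time after injury and any pooling of animals were not given in the sources used here. Nothing says that samples were separate animals, so the p-values computed here for input RNA measure only the spread between these samples. What spread the authors' p-values of peaks measure is not known. Each group had a single peak list and each comparison a single table, so no value of a peak has a replicate error.

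The input libraries had FPKM (fragments normalised for transcript length and library size) above 0 for 23495 to 24746 genes, and their read depth is unknown. Markers of neurons, myelin, astrocytes, microglia and endothelium were all above 0 in the 7 libraries, as brain tissue has. ICH replicate 2 stood apart (Pearson r of log2 FPKM with ICH replicate 1, 0.942, beside 0.983 to 0.988 among sham libraries). Summed choroid plexus markers (Ttr, Kl, Folr1) were 1.40 FPKM in acupuncture replicate 2 and 330 to 477 FPKM in the other libraries. In bulk tissue, fewer cells of a type and less RNA per cell cannot be told apart.

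To show what the transcript starts under these peaks look like, sequences were taken from RefSeq (GRCm38.p6). Of 7389 gene symbols with a 5' UTR peak, 5868 had an annotated start in the RefSeq table, and 2851 starts fell inside a 5' UTR peak of the same gene. The most used m6A core, GGACT in DNA letters, stood in the first 50 transcribed bases of 153 of them. The Myh10 start lay in a 5' UTR peak of the ICH list alone, outside its row among the largest differences (chr11:68692131-68692363). These are 6 stretches of 30 bases with that motif in capitals, from gene list members and from Myh10:
Dnaja1 (chr4:40722468-40722497, plus strand): gGGACTtccggcaagtgacgcgccggggct
Eif4g3 (chr4:137993455-137993484, plus strand): cgtcctgccGGACTgctggaggcggccgca
Gria2 (chr3:80802799-80802828, minus strand): gcacgcgcgcccgGGACTgcctgcccctct
Jun (chr4:95052186-95052215, minus strand): tcaggctggataaGGACTcagagttgcact
Myh10 (chr11:68691919-68691948, plus strand): ggtggagggagcgGGACTtgggaaggtagc
Sesn2 (chr4:132510407-132510436, minus strand): cttcccgagcagcgctggccactgcGGACT

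The first base decides whether a transcript can carry m6Am. Each stretch below holds the first 30 bases from a start. The start shown for Fosb lay inside its sham peak alone, outside the ICH peak for which it is named. That of Gbp3 lay in an ICH peak but outside its row among the largest differences. The first base is in capitals for 8 genes with peaks among the strongest or most different between groups, and for the demethylase gene Alkbh5:
Fosb (chr7:19310016-19310045, minus strand): Attcataagactggagcggctacgccgggg
St6gal2 (chr17:55445382-55445411, plus strand): Acactccacccagctgcctggcgcgcaggt
Lamb3 (chr1:193301994-193302023, plus strand): Agcagtggggctacacccagccagggagtc
Cldn3 (chr5:134986214-134986243, plus strand): Agtctcagaagccagtctccaaagccacag
Pkp4 (chr2:59160850-59160879, plus strand): Ggggcggcggcctctgagcagtctagaggg
Pcp4 (chr16:96467606-96467635, plus strand): Gcgctctcggatgtctgcaggcgttcagac
Gbp3 (chr3:142560356-142560385, plus strand): Tcggtgatggaacacactgtaggaaagaaa
Jag2 (chr12:112929466-112929495, minus strand): Tcgaggcggcgatgcgggcacgcggctggg
Alkbh5 (chr11:60537683-60537712, plus strand): Gggttgtggcgattcccgaggatttgtgcg

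GGACT stood in 5.37% of the 2851 starts inside a 5' UTR peak and in 5.76% of all 32851 starts of the table (5.86% of the protein-coding ones). Any of the 18 forms of the wider m6A consensus (A, G or T, then A or G, then AC, then A, C or T, which include GGACT; both motifs were searched on the transcribed strand only) stood in 45.1%, beside 54.4% of all starts and 50.4% of protein-coding ones. The first base was A in 28.8%, beside 37.4% of protein-coding starts. These shares are descriptions of 50 bases after a start, not of the whole peak: a start was inside 30.2% of the sham, 25.5% of the ICH and 26.1% of the acupuncture 5' UTR peaks.

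Peaks in 5' UTRs made up 11.6% of the sham list (95% Wilson interval 11.3 to 11.9%), 12.1% of the ICH list (11.9 to 12.4%) and 11.2% of the acupuncture list (10.9 to 11.4%). Intervals cover counting error only. The 3' UTR held 54.5%, 52.3% and 54.7% of the same lists. The ICH list had the most 5' UTR peaks in number and as a share, and the other lists were close to each other in number. Among peaks spanning at most 1000 bp the order of shares was different, with 9.16% in sham, 8.62% in ICH and 8.27% in acupuncture.

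Genes carried few 5' UTR peaks each. Of 4896 genes in the sham list 87.6% had a single peak, of 5760 in the ICH list 86.8%, and of 4851 in the acupuncture list 87.1%; no gene had more than 5. Among the genes with most peaks that have an approved symbol, ties taken by name, Ank2, which encodes the membrane scaffold ankyrin-B, had 4 sham, 4 ICH and 3 acupuncture peaks. Map2, a microtubule protein of dendrites, had 4, 3 and 5. Pax6, a developmental transcription factor, had 1, 2 and 5, and Tjap1, a tight junction associated protein, 1, 5 and 3. Apbb1, an adaptor of the amyloid precursor protein, had 4, 4 and 2, and Auts2, a neurodevelopmental gene, 4, 3 and 2. Cfap74 (4, 1 and 2), Ccdc30 (2, 4 and 2), Brinp2 (2, 2 and 4) and Gramd1b (3, 4 and 4) followed, in the same order of lists.

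The annotation spread these peaks well beyond a short leader. Median genomic span, introns included, was 1125 bp in sham, 1636 bp in ICH and 1396 bp in acupuncture, against 450, 500 and 450 bp for 3' UTR peaks. Spans above 1000 bp made up 51.6%, 56.7% and 54.0% of 5' UTR peaks. The longest spanned 1073737 bp in sham and ICH and 815733 bp in acupuncture. In Gria1, an AMPA receptor subunit, 1 peak of 165205 bp reached from the gene's 5' end across introns in all 3 lists. By contrast the peak of Smarca4, a chromatin remodeller, spanned 150 bp in each list. Spans of exactly 100 bp, the smallest, made up 5.13%, 3.76% and 4.53%. Another gene on the same strand overlapped 7.93%, 7.76% and 8.22% of them, and an antisense gene 17.8%, 17.3% and 18.1%; reads of such peaks could belong to either gene where strand was not used.

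Peaks began at the gene's annotated 5' end in 21.6% of the sham, 16.7% of the ICH and 16.9% of the acupuncture members, and within 100 bp of it in 48.9%, 44.7% and 44.3%. Those beginning exactly there were the more enriched: their median log2 IP over input was 1.18, 1.47 and 1.27, against 1.07, 1.20 and 1.07 for the remaining 5' UTR peaks. A further 12.1%, 12.9% and 12.3% began over 10000 bp inside the gene.

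Enrichment of an IP over its input, here the authors' log2 ratio per peak, had a median of 1.09 in sham, 1.24 in ICH and 1.10 in acupuncture. Over all annotations the medians were 1.07, 1.24 and 1.12, and over 3' UTR peaks 1.16, 1.47 and 1.25. So 5' UTR peaks stood below 3' UTR peaks and above exonic ones (0.80, 1.01 and 0.88) in each list, and the ICH list was the highest for each of these annotations. The gap between 5' and 3' UTR medians was widest in ICH.

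**Figure D1:**
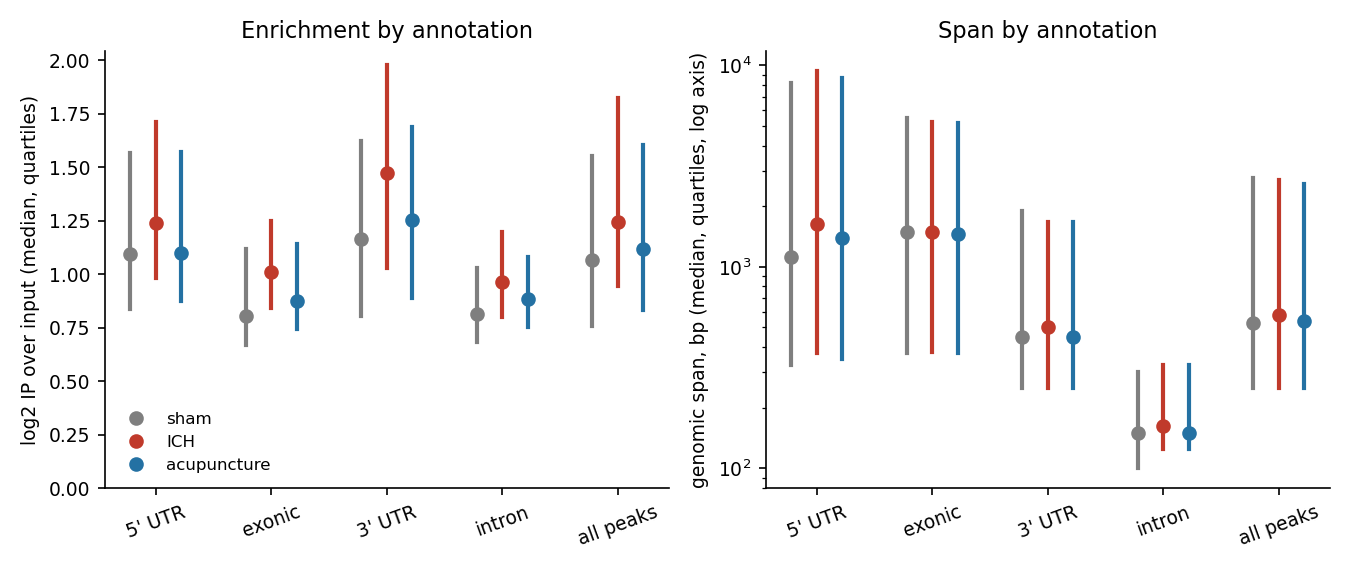
Enrichment (left, log2 IP over input) and genomic span (right, bp on a log axis) of peaks by annotation in the sham, ICH and acupuncture lists; points are medians and bars the quartiles over peaks, not replicate errors. The 5' UTR medians of 1.09, 1.24 and 1.10 lie between those of exonic and 3' UTR peaks, and 5' UTR spans reach far above 3' UTR spans.

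Enrichment was higher at genes with little RNA. Across 5607 sham peaks the Spearman correlation between a gene's mean FPKM and its 5' UTR enrichment was -0.25, across 5582 acupuncture peaks -0.22, and across 6648 ICH peaks -0.08; both axes share the same input reads, and peaks are not replicates. In sham, genes under 1 FPKM had a median log2 of 1.66 and those over 20 FPKM 0.95. In ICH the same classes had 1.81 and 1.25. Genes with a 5' UTR peak were mostly well expressed: 91.5% had a mean of at least 1 FPKM, against 43.4% of all genes in the table.

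The strongest single peaks belonged to genes of varied function. In the ICH list Fosb, an activity-induced AP-1 transcription factor subunit, had a peak of 500 bp (chr7:19309484-19309983, minus strand) at log2 6.02, beside 3.35 in sham and 3.59 in acupuncture. Pkp4, a plakophilin of cell junctions, stood at 5.15 in sham, 6.91 in ICH and 4.23 in acupuncture. Fras1, a basement membrane protein, stood at 3.88, 6.98 and 3.97, and the zinc finger gene Zfp410 at 2.78, 5.53 and 1.97. All 4 were highest in ICH by over 1 on the log2 scale, but they were named for the highest values of the ICH list, which favours that order. The highest ICH value, 7.54 for the junctophilin gene Jph2, came with no 5' UTR peak in the other lists, and Zfp773 had 5.60 in ICH, 3.31 in acupuncture and none in sham.

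Other strong peaks were highest in the acupuncture list. Slc26a4, an anion exchanger, stood at 3.37 in sham, 4.96 in ICH and 5.67 in acupuncture, and St6gal2, a sialyltransferase, at 3.62, 4.20 and 5.09. Spen, a transcriptional repressor, stood at 4.58, 4.50 and 5.53. The highest value of any 5' UTR peak, 7.98 for the mitochondrial transcription factor gene Mterf1a, and the 5.07 of Arsj, a sulfatase, were found in the acupuncture list alone. In sham, Nr1h3, which encodes the liver X receptor alpha, stood at 6.12, with 1.98 in acupuncture and no peak of any kind in ICH. Efcab9, known from sperm, stood at 5.49 in sham, 3.57 in ICH and 2.80 in acupuncture. These genes too were named for the highest values of a list, which favours that list in the comparison. No list has replicates, so none of these differences has an error.

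Other strong peaks had close values in the lists. Lamb3, a laminin subunit, stood at 5.40, 5.36 and 5.18 in sham, ICH and acupuncture. Mob2, a regulator of NDR kinases, stood at 5.09, 5.12 and 5.01, Wdr66, a ciliary gene, at 5.19, 4.83 and 4.95, and Cic, a transcriptional repressor, at 4.40, 4.32 and 4.44. Cldn3, a tight junction claudin, was at 4.27 and 4.43 in sham and acupuncture and at 5.17 in ICH.

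Overlap between lists was incomplete. A 5' UTR peak of the ICH list overlapped 73.5% of sham peaks and 76.4% of acupuncture peaks by at least 1 bp on the same strand. Sham and acupuncture peaks covered 61.9% and 63.7% of ICH peaks, a longer list, and the sham and acupuncture lists covered 67.1% and 67.4% of each other. Over all annotations these shares ran from 71.0% to 82.6%, and 3' UTR peaks overlapped by 78.4% to 87.3%, above every 5' UTR share. Exonic peaks overlapped by 45.2% to 59.7%. Of the 7393 genes, 3115 (42.1%) had a 5' UTR peak in all 3 lists. The sham list alone held 674 (9.12%), ICH alone 1141 (15.4%) and acupuncture alone 579 (7.83%). For exonic peaks the single-list shares were close to these, at 9.38%, 14.5% and 8.93%. Over peaks of all annotations they were 2.26%, 2.19% and 2.53%. For 3' UTR peaks 90.2% of genes were in all 3 lists, for exonic peaks 40.4% and over all annotations 85.0%. Most of the genes found in a single list had some peak in the other lists, at the same place or elsewhere on the gene. Of the 1141 genes, 95.1% had a sham peak of some annotation and 98.2% an acupuncture peak. Part of this is labelling: of all ICH 5' UTR peaks, 4.03% overlapped a sham peak labelled 3' UTR instead and 4.22% one labelled exonic.

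Where 1 peak of each list matched 1 of each other, 2087 peaks could be followed across groups. Their median log2 was 1.32 in sham, 1.58 in ICH and 1.35 in acupuncture. ICH exceeded sham at 74.1% of them, by a median of 0.23. Acupuncture was below ICH by a median difference of -0.19 and above it at 26.5%, and differed from sham by a median of 0.04. The highest of the 3 values was in ICH at 61.5% of the peaks, in sham at 20.4% and in acupuncture at 18.1%. The comparisons share groups, so these shares are not independent of each other, and matching kept only peaks found in all lists.

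**Figure D2:**
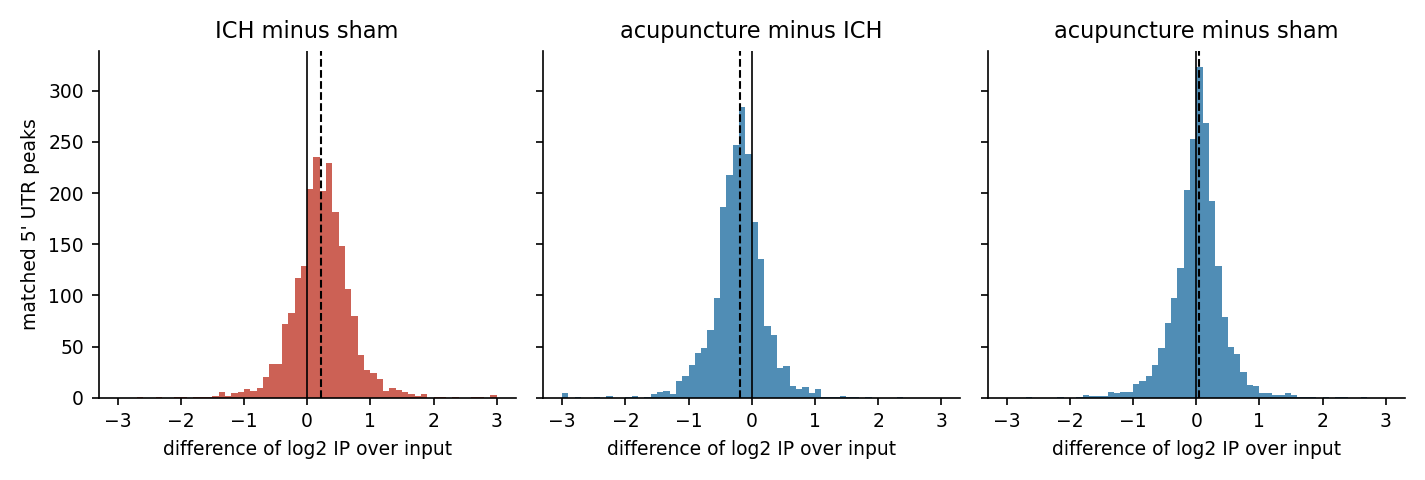
Differences in log2 IP over input at the 2087 matched 5' UTR peaks, ICH minus sham, acupuncture minus ICH and acupuncture minus sham; bars count peaks, the dashed line is the median and values beyond 3 are drawn in the end bins. The medians of 0.23, -0.19 and 0.04 show the ICH list above both others.

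Among the enzymes that write the mark, 3 of 10 genes had a 5' UTR peak in sham, 5 in ICH and 3 in acupuncture. Rbm15, an adaptor that recruits the methyltransferase, carried the strongest at log2 3.22, 3.27 and 3.11 (highest peak in the acupuncture list), with RNA of 1.72 ± 0.196 FPKM in sham (SD, n = 3). Mettl14 stood at 1.13, 0.98 and 0.60, where the authors' adjusted p of the last was 0.0521. Zc3h13 stood at 0.68, 1.12 and 1.05. Virma (0.99) and Wtap (1.84) had a 5' UTR peak in the ICH list alone. Alkbh5, the demethylase, had one in each list (0.91, 1.60 and 1.31), and Pcif1, the cap-adjacent methyltransferase, one of 0.84, 1.12 and 0.78 that began 3638, 3513 and 3638 bp inside its gene. None of the 9 writers tested passed in input RNA in any comparison.

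Readers of the mark had 6 of 13 genes with a 5' UTR peak in some list. Ythdf3, a cytoplasmic m6A-binding protein, was at 0.92, 1.02 and 1.01 in sham, ICH and acupuncture. Hnrnpa2b1, a nuclear RNA-binding protein, was at 1.12, 1.20 and 0.90. Elavl1, a stabilising RNA-binding protein, had a peak of 1.92 in ICH alone. Initiation factors linked to 5' UTR m6A rarely had one: Eif3b in ICH (1.19) and acupuncture (0.88) and Eif3a in acupuncture (1.08) were the 2 of 14. Of 16 cap-binding and scanning factors, 7, 4 and 3 had a peak, and Eif4g3, a scaffold of the cap complex, had a strong one at its 5' end in each list (1.91, 1.94 and 1.58).

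Heat shock genes with a 5' UTR peak numbered 4 of 15 in sham, 8 in ICH and 3 in acupuncture. Of all genes with any peak, 28.7%, 32.9% and 27.8% had one in a 5' UTR, and the lists' counts were not tested against each other. Dnaja1, a co-chaperone, was at 0.94 in sham, up to 1.01 in ICH and up to 1.29 in acupuncture. Dnajb1, another, had a 5' end peak of 1.38 in sham and 1.52 in ICH and none in acupuncture. Hspe1 (1.80), Hspd1 (1.09) and Hspb1 (1.14), mitochondrial and small chaperones, were in the ICH list alone, and Hspa8 was at 1.28 in sham and up to 1.64 in ICH. Hsp90aa1, a cytosolic chaperone, was at 1.13 in ICH and 0.95 in acupuncture with the same span of 200 bp.

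Genes of neuronal activity had 7 of 16 members in each list. Junb stood at 0.99 in sham, 1.83 in ICH and 0.87 in acupuncture, and Egr2 at 1.02, 2.45 and 1.93, both transcription factors. Jun had a peak of 2.02 over its 5' end in ICH alone. Npas4, a factor of active neurons, had 2 peaks in sham (0.93 and 1.19), 2 in acupuncture (0.54 and 0.94) and 1 in ICH (0.76).

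Chromatin regulators with a 5' UTR peak numbered 10 of 12 in sham, 7 in ICH and 7 in acupuncture. The peaks of Ep300, a histone acetyltransferase, were among the stronger ones at 2.71, 2.81 and 2.41, with spans of 1500, 1575 and 1500 bp. Arid1a, a subunit of the SWI/SNF remodeller, had a peak at its 5' end of 1.87, 2.12 and 2.04. Crebbp, the paralog of Ep300, had peaks of up to 1.87 in sham, 2.82 in ICH and 0.99 in acupuncture. Potassium channel genes had 7, 8 and 6 of 13, led by Kcnd2 at 2.40 in ICH and 2.29 in acupuncture with identical spans of 1850 bp. Synaptic genes had 6, 8 and 7 of 20; Gria2, an AMPA receptor subunit, was at 0.78, 1.03 and 0.84. Genes of the integrated stress response had 3, 5 and 4 of 13, among them Atf5, a stress transcription factor, at 1.36, 1.49 and 1.33. In the haem and iron list 4, 3 and 3 of 15 had a peak; the highest was Bach1, a haem-sensing repressor, at 2.64 in acupuncture and 1.38 in sham with none in ICH.

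For ICH against sham, the authors' deposited table held 2271 5' UTR rows with a p, of which 1761 were higher in ICH and 510 lower. At the authors' adjusted p under 0.05, 1493 were higher and 407 lower. Of the 1493, 84 overlapped a 5' UTR peak of the sham list alone and 46 one of neither list. Of the 407, 34 overlapped one of the ICH list alone and 10 one of neither. Listed rows all had a p under 0.05. Over all annotations 69.9% of listed rows were called higher and 18% lower, 87.9% in either direction. The median difference was 0.60 on the log2 scale at 5' UTRs and 0.56 over all rows. Rows higher in ICH made up 77.5% at 5' UTRs and 78.7% over all annotations.

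Gains in ICH were led by Gbp3, an interferon-induced GTPase, which in the authors' deposited table stood at log2 2.13 in ICH and -2.43 in sham, a difference of 4.57. Its RNA rose as well, from 0.961, 1.04 and 1.57 FPKM in the sham libraries to 6.21 and 4.88 in ICH (log2 fold change 1.58 ± 0.19 SE on the log2(FPKM + 1) scale, limma adjusted p = 0.00408). The ICH and sham libraries did not overlap. The same table gave a difference of 4.30 for Zfp931, a zinc finger gene, and of 4.24 for Axin2, a feedback inhibitor of Wnt signalling. Axin2 RNA was 4.05, 3.87 and 4.49 FPKM in sham and 3.26 and 3.59 in ICH (adjusted p = 0.324 by limma), lower in both ICH libraries than in any sham library.

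Further down, the authors' deposited table gave gains of 4.13 for Arid5a, an RNA-binding regulator of inflammatory transcripts, 3.99 for the homeobox gene Lhx5, 3.46 for the ubiquitin ligase subunit Fbxo27, 3.23 for the water channel Aqp1 and 3.22 for Adora2a. Lhx5 was at or near 0 FPKM in ICH (0.0430 and 0) and Arid5a below 1 in all sham and ICH libraries, so little input lay beneath those ratios. At the Lhx5 row only the sham list held a 5' UTR peak, and at those of Arid5a, Aqp1 and Adora2a neither list did. Adora2a, an adenosine receptor of striatal neurons, had an m6A difference and an RNA difference in opposite directions. Its RNA was 21.7, 19.0 and 19.3 FPKM in sham and 10.0 and 8.53 in ICH, with no overlap. That fall passed the test (log2 fold change -1.03 ± 0.22 SE, limma adjusted p = 0.0470), but the call was lost without any single sham library, without ICH replicate 2 and under 4 other settings.

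Losses in ICH were led by Jag2, a Notch ligand, at -0.97 in ICH and 3.31 in sham, a difference of -4.28 in the authors' deposited table. That table gave -3.33 for Asb11, a ubiquitin ligase subunit, -2.73 for Paxx, a factor of DNA end joining, -2.60 for Dynlt3, a dynein light chain, -2.48 for the calcium-binding Necab2, -2.42 for the alarmin gene Il33, -2.31 for the nucleosome-binding Hmgn5 and -2.27 for Caprin2. Neither list held a 5' UTR peak at the Hmgn5 row. Asb11 was at 0.331 and 0.562 FPKM in ICH and Caprin2 at 0.432 and 0.591, so little input lay beneath their ratios. Necab2 RNA was 27.6, 25.8 and 28.8 FPKM in sham and 21.7 and 36.2 in ICH, so the groups overlapped. Jag2 RNA was 4.73, 4.39 and 4.56 FPKM in sham and 3.95 and 2.26 in ICH (adjusted p = 0.186 by limma).

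**Figure D3:**
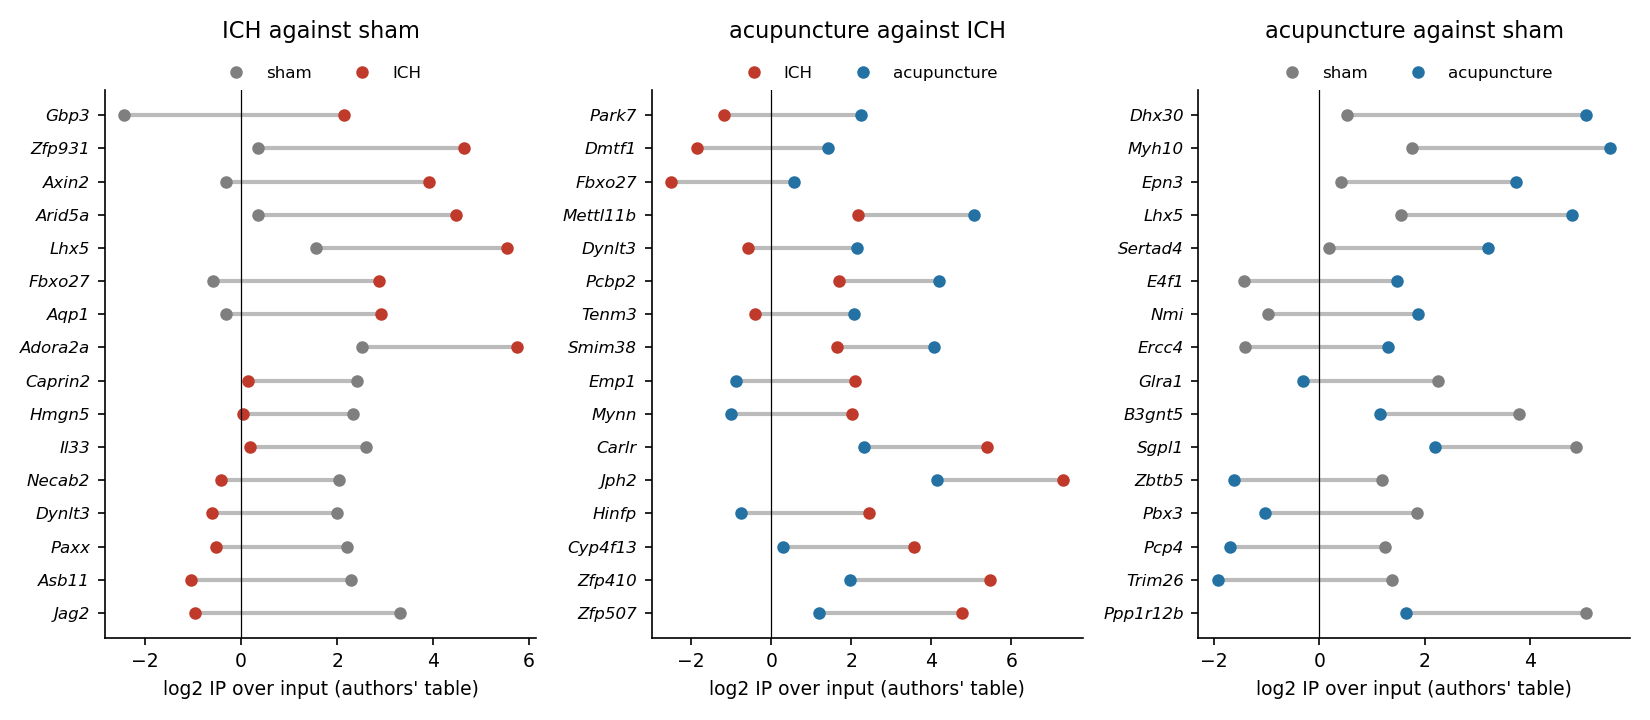
Log2 IP over input from the authors' deposited tables for the 5' UTR rows with the 8 largest differences in each direction per comparison; each line joins the values of the 2 groups for a gene. Gbp3 moves from -2.43 in sham to 2.13 in ICH, and Dynlt3 is lower in ICH than in sham and higher in acupuncture than in ICH.

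By list, the authors' deposited table called 3 of 3 heat shock rows higher in ICH: Hspb1 by 1.82, Hspe1 by 1.22 and Hsp90aa1 by 0.48. Of all listed rows 69.9% were called higher, so such small counts do not set a list apart. Hspe1 RNA was 29.0 ± 3.68 FPKM in sham (SD, n = 3) and 25.0 ± 7.03 in ICH (SD, n = 2), with overlapping libraries (adjusted p = 0.472 by limma). Hspb1 RNA was 3.55, 3.77 and 3.93 FPKM in sham and 6.89 and 5.11 in ICH, without overlap (adjusted p = 0.0536 by limma). Hsp90aa1 RNA was lower in both ICH libraries than in any sham library (adjusted p = 0.373 by limma). Of 4 immediate early rows 3 were called higher in that deposited table of the authors, Fosb by 2.65, Egr2 by 1.37 and Junb by 0.72, and Nr4a1, an orphan nuclear receptor, was lower (-0.70). Fosb RNA was 1.63, 3.50 and 2.28 FPKM in sham and 1.05 and 1.69 in ICH, and Junb RNA 26.6, 49.2 and 30.6 against 16.7 and 17.1 with no overlap (adjusted p = 0.390 and 0.0815 by limma).

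All 4 striatal rows were called higher in ICH in the authors' deposited table, as were 69.9% of all listed rows. Among the 4 were Adora2a, where neither list held a 5' UTR peak, Pde10a by 2.13 and Ppp1r1b by 0.41. RNA of this list of striatal projection neuron genes was lower, with 8 of 12 genes tested called lower by limma (0.724% of all genes were) and a median log2 fold change of -1.01, beside -0.01 over all genes. The calls of Adora2a and Pde10a were each lost when any single sham library was left out. Penk, the enkephalin precursor, was at 181, 170 and 183 FPKM in sham and 82.8 and 79.3 in ICH (log2 fold change -1.13 ± 0.11 SE, adjusted p = 0.00151 by limma), and no alternative setting ended the call. Pde10a, a striatal phosphodiesterase, was at 24.7, 23.5 and 25.8 in sham and 13.7 and 15.7 in ICH. Whether fewer striatal neurons or less RNA in each lay behind this cannot be told apart, and brain region was not given in the sources used here.

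Other lists gave a few rows each in the authors' deposited table. Among readers and erasers Elavl1 was higher in ICH by 1.50 and Alkbh5 by 0.76, and among writers Zc3h13 by 0.94. Mettl4, which methylates a spliceosomal RNA, was lower (-0.53). Eif3b was higher by 0.53 and Eif1a, a scanning factor, lower (-1.30). In that deposited table of the authors potassium channel rows were higher for Kcnma1 (1.11), Kcna1 (0.69) and Kcnj9 (0.66) and lower for Kcnd2 (-0.20). Only the sham list held a 5' UTR peak at the Kcna1 row and only the ICH list at the Kcnd2 row, against the direction of both. Synaptic rows there were higher for Gria2 (0.76) and Gria1 (0.55) and lower for the NMDA receptor subunit Grin2b (-0.87).

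For acupuncture against ICH, the authors' deposited table held 2094 5' UTR rows with a p, 413 higher and 1681 lower in acupuncture. At adjusted p under 0.05 these were 239 and 1190, beside 11.6% called higher and 62.4% called lower over all listed rows (74% either way). Of the 239, 20 overlapped a 5' UTR peak of the ICH list alone and 13 one of neither list. Of the 1190, 29 overlapped one of the acupuncture list alone and 37 one of neither. The median difference was -0.58 at 5' UTRs and -0.46 over all rows. This comparison shares its ICH libraries with the preceding one, so the values of both are not independent.

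Gains after acupuncture were led by Park7, a sensor of oxidative stress, at 2.25 in acupuncture and -1.19 in ICH, a difference of 3.44 in the authors' deposited table. Dmtf1, a transcription factor of the Arf pathway, gained 3.27 in the authors' deposited table, Fbxo27 3.08, the methyltransferase gene Mettl11b 2.91, Dynlt3 2.72, the poly(C)-binding Pcbp2 2.48, the teneurin Tenm3 2.46 and Smim38 2.43. Park7 RNA was 31.9 and 18.3 FPKM in ICH and 35.6 and 32.0 in acupuncture, the lower value being ICH replicate 2. Mettl11b and Smim38 had under 0.5 FPKM in all 7 libraries. At the Mettl11b row only the ICH list held a 5' UTR peak, and at those of Fbxo27 and Smim38 neither list did. Pcbp2 RNA was 31.7 and 36.5 FPKM in ICH and 33.5 and 36.8 in acupuncture, overlapping. Dynlt3 was the row that also stood among the largest losses of ICH against sham, with the same span of 5666 bp.

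Losses after acupuncture were led by 2 zinc finger genes: Zfp507 at 1.20 against 4.77 in ICH and Zfp410 at 1.96 against 5.47, differences of -3.57 and -3.51 in the authors' deposited table. That deposited table of the authors gave -3.27 for Cyp4f13, a cytochrome P450, -3.21 for Hinfp, a regulator of histone H4 genes, -3.16 for Jph2, -3.07 for Carlr, -3.04 for Mynn and -2.98 for the membrane protein gene Emp1. Zfp410 RNA was 1.50 and 1.21 FPKM in ICH and 1.56 and 1.76 in acupuncture (adjusted p = 0.388 by limma). Emp1 RNA was 1.44 and 1.99 against 2.27 and 2.00. Jph2 and Carlr had under 0.5 FPKM in the 4 libraries.

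Of the gene lists, heat shock rows in the authors' deposited table were called lower 3 of 3 times: Hspb1 by -1.34, Hspe1 by -0.57 and Hsph1 by -0.36. Of all listed rows 62.4% were called lower, so such small counts do not set a list apart. Hspb1 RNA was 6.89 and 5.11 FPKM in ICH and 14.5 and 13.8 in acupuncture, without overlap (limma adjusted p = 0.0789). Hspe1 RNA was also higher in both acupuncture libraries and Hsph1 RNA lower (limma adjusted p = 0.318 and 0.496). The part of RNA in these peak differences was not tested. Fosb was lower by -2.39 and Junb by -0.22 in the authors' deposited table, and Egr3, a further activity-induced factor, was higher by 0.64. Only the ICH list held a 5' UTR peak at the Egr3 row. Synaptic rows were called lower 4 of 4 times, beside the same 62.4% of all listed rows. Among them in the authors' deposited table were Shank2 (-0.73), Gria2 (-0.49) and Gria1 (-0.28). Potassium channels in the authors' deposited table were lower for Kcnma1 (-1.15), Kcnq3 (-0.96) and Kcnj9 (-0.80) and higher for Kcnc1 (0.39). Striatal rows called lower in the authors' deposited table were Penk (-0.94) and Ppp1r1b (-0.67). Crebbp was lower by -1.83 and Kdm6b, a histone demethylase, higher by 1.78 in the authors' deposited table. Elavl1 (-1.67), Zc3h13 (-0.90) and Virma (-0.60) were lower in the authors' deposited table, as was the iron exporter Slc40a1 (-1.81).

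For acupuncture against sham, the authors' deposited table had 1691 5' UTR rows with a p, 852 higher and 839 lower. At adjusted p under 0.05 there were 494 and 482, beside 37.7% and 26.2% over all listed rows (63.9% either way). Of the 494, 18 overlapped a 5' UTR peak of the sham list alone and 28 one of neither list. Of the 482, 24 overlapped one of the acupuncture list alone and 16 one of neither. The median difference was 0.12 at 5' UTRs, 0.24 over all rows and 0.23 at 3' UTRs. The 5' UTR rows were thus evenly divided (50.4% higher), while 61.6% of 3' UTR rows were higher; this difference between annotations was not tested, since peaks are not replicates.

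**Figure D4:**
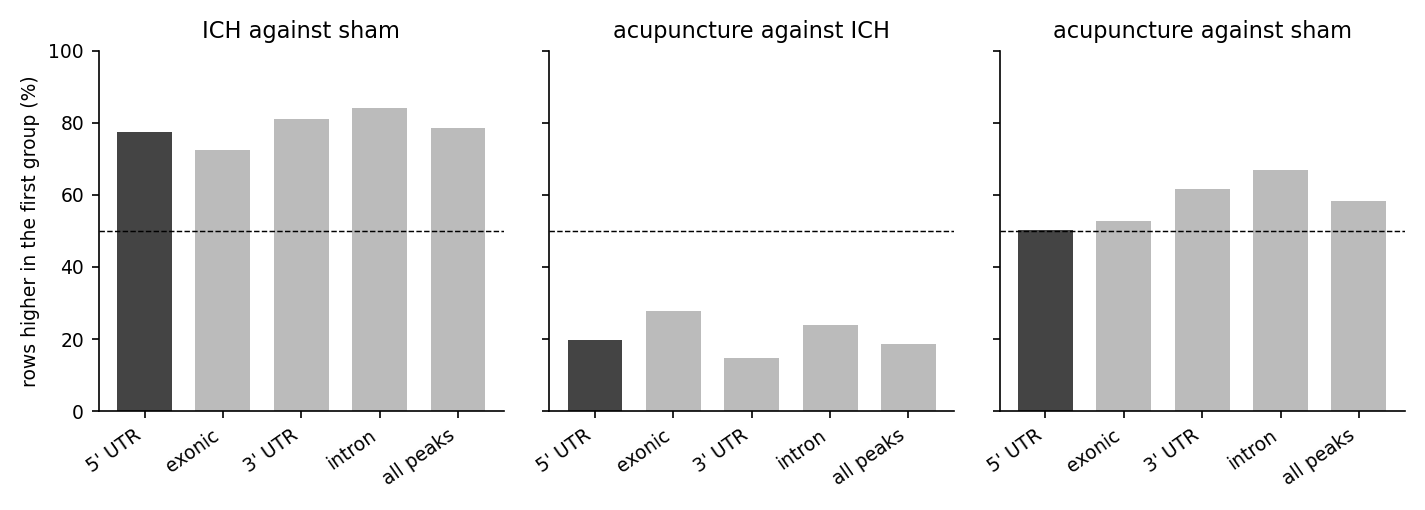
Share of listed rows that were higher in the first group of each comparison, by annotation (bars start at 0, the dashed line marks 50%); 5' UTR rows are dark. The 5' UTR shares are 77.5%, 19.7% and 50.4%, beside 78.7%, 18.6% and 58.3% of all rows.

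Gains against sham were led by Dhx30, an RNA helicase, at 5.06 against 0.53 (difference 4.53), and Myh10, a nonmuscle myosin heavy chain, at 5.52 against 1.75 (difference 3.76), in the authors' deposited table. Epn3 followed in the authors' deposited table with 3.31, Lhx5 with 3.25, Sertad4 with 3.00, the transcription factor E4f1 with 2.91, the interferon-responsive Nmi with 2.84 and the repair nuclease Ercc4 with 2.72. Myh10 RNA was 27.0, 28.6 and 27.2 FPKM in sham and 18.2 and 18.6 in acupuncture, without overlap (log2 fold change -0.56 ± 0.10 SE, limma adjusted p = 0.0133). That call was lost when any single sham or acupuncture library was left out. Lhx5 was at 0 and 0.0682 FPKM in acupuncture and Epn3 at 0.341 and 0.128, so little input lay beneath their ratios. Dhx30 RNA was 6.93, 7.35 and 6.81 against 6.22 and 6.99 FPKM, overlapping. Neither list held a 5' UTR peak at the rows of Dhx30 and Sertad4, and only the sham list did at that of Lhx5.

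Losses against sham in the authors' deposited table were Ppp1r12b, a myosin phosphatase subunit (-3.42), Trim26 (-3.30), Pcp4, a calmodulin regulator (-2.94), the homeobox gene Pbx3 (-2.88), Zbtb5 (-2.81), Sgpl1, the sphingosine phosphate lyase (-2.67), B3gnt5 (-2.62) and the glycine receptor Glra1 (-2.56). The Ppp1r12b row began 152453 bp inside its gene, and only the acupuncture list held a 5' UTR peak there, against the row's direction. At the Glra1 row neither list held one. B3gnt5 was at 0.452 and 0.178 FPKM in acupuncture and Glra1 at 0.0615 and 0.0287, so little input lay beneath their ratios. Pcp4 RNA fell too, from 354, 354 and 369 FPKM in sham to 143 and 177 in acupuncture (log2 fold change -1.17 ± 0.23 SE, limma adjusted p = 0.0195, a call lost without any single sham or acupuncture library). Sgpl1 RNA rose, from 5.23, 4.22 and 4.46 FPKM to 10.6 and 9.83 (log2 fold change 0.99 ± 0.15 SE, limma adjusted p = 0.00607, a call lost without acupuncture replicate 1), while its peak value was lower. Pbx3 RNA was 1.18 and 7.41 FPKM in the acupuncture libraries, the higher value in replicate 2, where choroid plexus markers were near 0; its part in the peak's difference was not tested.

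Among the gene lists, the authors' deposited table called Hspe1 (0.64) and Hsp90aa1 (0.32) higher than sham, Setd1a, a histone methyltransferase, higher by 0.96, Alkbh5 by 0.55, Sesn2, a stress-induced sestrin, by 1.99, Nr4a2 by 1.76 and Tfrc, the transferrin receptor, by 0.80. Also higher in the authors' deposited table were Tac1, a striatal neuropeptide precursor (1.47), Eif4g3 (0.66) and Gria1 (0.26). Lower rows in the authors' deposited table were Nr4a1 (-0.48), Kcnq3 (-0.93), Kcnd2 (-0.26), Grin2b (-0.61), Eif4g2 (-0.44) and Eif2ak4, a stress kinase (-1.30). Neither list held a 5' UTR peak at the Hspe1 row, and at the Kcnd2 row only the acupuncture list did. Tfrc RNA went the opposite way to its peak, from 16.4 ± 0.116 FPKM in sham (SD, n = 3) to 9.06 ± 0.223 in acupuncture (SD, n = 2; limma adjusted p = 0.00160).

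Input RNA was then compared for the genes that carry 5' UTR peaks. Of these, 6756 had a mean of at least 1 FPKM and were tested with all 13666 such genes. In ICH against sham 288 were called higher and 62 lower, which is 5.18% of them, beside 5.68% of all genes (4.95% higher and 0.724% lower). For acupuncture against ICH none was called by limma (5 of all genes, 0.0366%). An unadjusted limma p under 0.05 was found for 1420 of the 6756, beside 2754 of all 13666 genes. In acupuncture against sham 512 were higher and 263 lower, 11.5% of them beside 11.7% of all (8.47% higher and 3.22% lower). With quantile normalization that split became 412 higher and 417 lower. The counts depended on single libraries. Far more genes were called in both comparisons with ICH when ICH replicate 1 was left out. The only ICH library was then replicate 2, which stood apart, and it was assumed to vary as the other groups do. Leaving out ICH replicate 2 instead brought no such rise. Without sham replicate 1, 2 or 3, the calls in ICH against sham were 153, 161 and 163 higher and 16, 30 and 10 lower.

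Astrocyte and immune genes led the gains. Serpina3n, a protease inhibitor of reactive astrocytes, was at 4.59, 3.70 and 4.85 FPKM in sham, 128 and 134 in ICH and 229 and 219 in acupuncture (log2 fold change 4.63 ± 0.12 SE in ICH and 5.39 ± 0.12 in acupuncture against sham, limma adjusted p = 1.64e-05 and 5.71e-06). It had a 5' UTR peak of 2.53 in ICH and 2.27 in acupuncture and none in sham. Gfap, the astrocyte filament protein, was at 24.0, 25.4 and 29.4 in sham, 394 and 338 in ICH and 451 and 362 in acupuncture, with a peak of 0.65, 1.17 and 0.79. Saa3, an acute phase protein, was at 2.60 to 2.88 in sham, 62.7 and 26.1 in ICH and 324 and 297 in acupuncture, with a peak of 1.31 in ICH and 1.41 in acupuncture. Each of these had no overlap between sham and the injured groups.

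Arg1, an arginase of macrophages, was at 0.214 to 0.325 FPKM in sham, 8.31 and 7.22 in ICH and 27.0 and 10.9 in acupuncture, with a 5' UTR peak of 2.38 in ICH and 1.69 in acupuncture. Gpr84, an inflammatory receptor, was at 0.229 to 0.603, then 7.76 and 6.36, then 15.3 and 12.3. Lgals1, a galectin, was at 7.68 to 10.8, then 71.5 and 47.6, then 93.3 and 80.2. Summed microglia markers were 41.0 to 55.4 FPKM in sham, 116 to 211 in ICH and 237 to 245 in acupuncture. Its members differed: C1qa was at 21.1 to 33.3, 72.5 to 176 and 209 to 223, and P2ry12, a marker of resting microglia, at up to 12.9 in sham, 12.3 to 22.1 in ICH and 5.55 to 6.99 in acupuncture, below every sham library. Neutrophil markers (S100a8, S100a9) were 7.00 to 9.42, 13.8 to 15.2 and 47.0 to 74.3. These markers moved with the groups, and their part in the peak differences was not tested.

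Among the largest falls against sham after acupuncture, Pde10a reached 7.25 and 5.89 FPKM (log2 fold change -1.77 ± 0.12 SE, limma adjusted p = 0.000215), and Unc13c, a synaptic vesicle priming gene, 2.40 and 1.23 beside 6.88 to 8.93. Slc17a6, a vesicular glutamate transporter, was at 14.5, 8.02 and 15.4 in sham and 3.29 and 2.63 in acupuncture, a call that was lost without either acupuncture library. Summed myelin markers were 672 to 866 FPKM in sham, 538 to 540 in ICH and 299 to 483 in acupuncture, and neuron markers 468 to 551, 481 to 782 and 441 to 457; their part in these differences was not tested. Pde10a had 1 peak of 0.72 in sham, 1 of 2.20 in ICH and 3 of up to 1.35 in acupuncture.

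**Figure D5:**
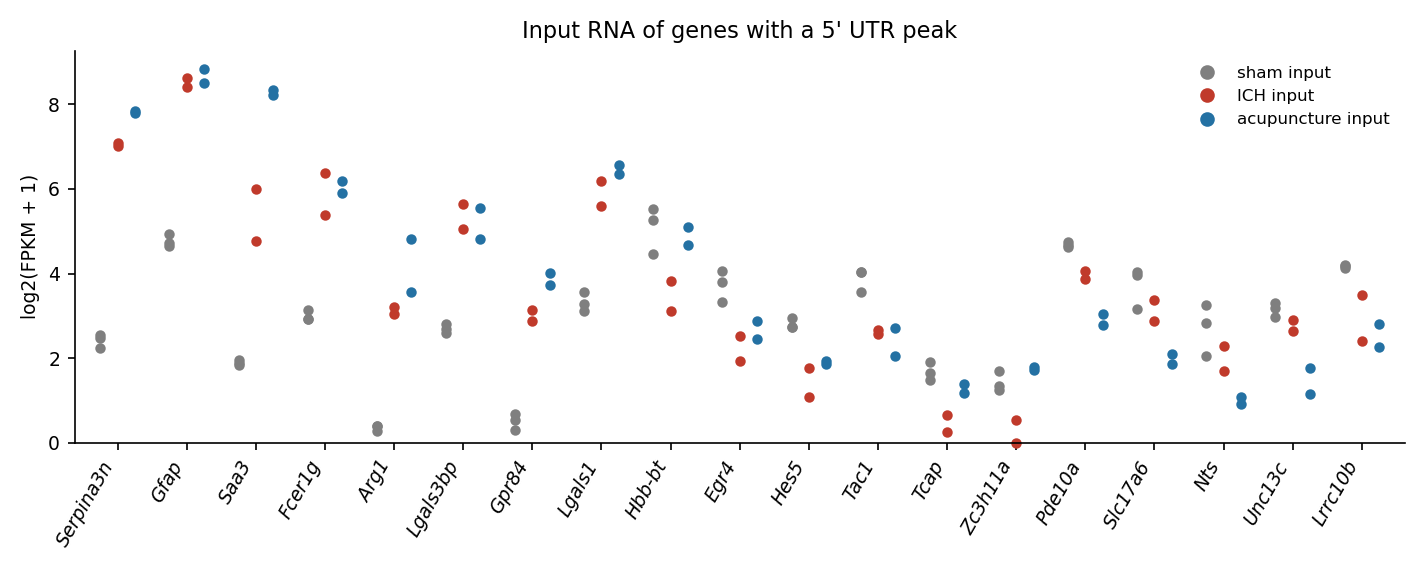
Input RNA, log2(FPKM + 1), of the genes with a 5' UTR peak that had the largest called changes; each point is a library (3 sham, 2 ICH, 2 acupuncture). Serpina3n, Gfap and Saa3 lie far higher in the ICH and acupuncture libraries than in sham, and Pde10a lower.

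Pearson's r between the 5' UTR difference of the authors' deposited table and the gene's RNA log2 fold change was -0.07 over 2160 rows for ICH against sham, -0.12 over 1975 for acupuncture against ICH and -0.04 over 1590 for acupuncture against sham. Over all annotations the values were -0.15, -0.16 and -0.05. The input reads enter both axes, with opposite signs, and peaks are not replicates. Of 1431 genes with a 5' UTR row called higher in ICH, 1371 were tested in RNA, 41 were called higher (2.99%) and 17 lower (1.24%), beside 4.95% and 0.724% of all genes. Among the 396 with a row called lower, 12 of 369 tested were higher (3.25%) and 3 lower (0.813%).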

How the data were processed

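Brain RNA of 7 samples (3 sham, 2 ICH, 2 acupuncture) was measured as m6A IP and input libraries, 14 in all. The members and gene lists were chosen with earlier results of these data known. Per the submitters' processing notes, fastp, HISAT2, HOMER, StringTie and edgeR were used; their versions and roles, and the peak caller, are not given in the sources used here. A human build is named there, but 98.1% of 7337 matched symbols lay within 1000 bp of their RefSeq GRCm38.p6 place, so coordinates are given as GRCm38, 1-based. The authors deposited, per group, peaks with a log2 ratio of IP over input and a p-value, and per comparison the log2 values of both groups, their difference and a p-value; replicates were combined. The authors deposited input RNA as FPKM per gene. Of its columns 7 were matched to samples, those of sham and acupuncture by elimination of names, and 2 match no sample and were not used; whether they entered the peak lists is not known.

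Computed here were counts, medians, Wilson intervals, overlaps (at least 1 bp, same strand) and matched peaks (Python 3.11.15, numpy 2.4.6, pandas 2.3.3, scipy 1.17.1; figures matplotlib 3.10.9). Spans include introns. RNA was tested with limma 3.58.1 (R 4.3.3, trend) on log2(FPKM + 1) of genes averaging 1 FPKM or more across the 7 libraries, Benjamini-Hochberg adjusted p under 0.05; fold changes on that scale understate low genes. The fit was checked on simulated data. Depth is unknown from FPKM, so no counting interval was given for RNA. Genes with an approved symbol, not gene models, were named by rule: the 6 highest peaks per list, the 8 largest differences per direction with adjusted p under 0.05, the 4 genes with most peaks per list (ties by name), the 6 strongest matched peaks by their lowest value, list members, and the 6 largest RNA calls per direction. Some genes these rules name are not reported here. Alternatives were other thresholds on enrichment, span and overlap, and other filters, pseudocount, normalization, replicate block and omitted libraries for RNA.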

Additional observations from a re-analysis of the deposited data

How the results depend on the processing

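No called value changed sign. Keeping log2 of at least 1 left 3241 sham and 3369 acupuncture 5' UTR peaks, with shares of 12.3%, 12.8% and 11.5% in sham, ICH and acupuncture. Keeping spans of at most 1000 bp left 2717, 2878 and 2571 peaks, shares of 9.16%, 8.62% and 8.27% and medians of 1.01, 1.16 and 1.03; by share, sham was then the highest. Overlap at 50% of both peaks was 52.1% and 50.1% (sham by ICH and acupuncture), 43.9% and 46.7% (ICH by sham and acupuncture), 50.3% and 55.6% (acupuncture by sham and ICH). Against any peak it was 81.6%, 74.6%, 70.7%, 72.3%, 75.9% and 84.4% in that order, and for spans of at most 1000 bp, chosen after seeing the data, 50.6%, 49.7%, 48.0%, 49.1%, 52.8% and 55.0%. Rows differing by at least 1 numbered 519 higher and 130 lower (ICH against sham), 153 and 486 (acupuncture against ICH), 303 and 243 (acupuncture against sham). Rows of any size with spans of at most 1000 bp numbered 777 and 198, 182 and 674, 408 and 334. At the authors' adjusted p, 239 rows were higher in acupuncture than ICH, and 494 higher and 482 lower than sham. RNA calls at 5' UTR genes with no low filter were 29 lower (ICH against sham). With 2 groups only they were 39 lower, and 874 higher and 697 lower for acupuncture against sham (3136 of all genes; 2 for acupuncture against ICH). Quantile normalization gave 417 lower for acupuncture against sham. Deviations of same-numbered libraries from their group means correlated at -0.015 to 0.094. In groups of 2 such deviations mirror each other, so this check cannot settle whether the numbers mark a pairing. With a replicate block the calls were 132 and 12 in ICH against sham (351 of all genes) and 274 and 62 in acupuncture against sham (750). In acupuncture against ICH they were 3 of all genes. Leaving out 1 library gave 153 to 1221 higher and 10 to 1390 lower in ICH against sham (392 to 5204 of all), 0 to 1539 and 0 to 1108 in acupuncture against ICH (2 to 5098), 258 to 896 and 80 to 703 in acupuncture against sham (775 to 3197). Of 69 single-gene calls, 26 were lost with the block and 21 without the filter. Leaving out a single sham library lost 20 to 23 of them. The cause was not tested. Peaks have no replicates and FPKM keeps no depth.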
